A study of Mus musculus with 8 samples.

Results

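The genes described here encode the microtubule and its motors: the tubulins, the γ-tubulin ring complex, the kinesins, and cytoplasmic dynein with its activator dynactin. They were taken from the gene table by symbol (those starting Tuba, Tubb, Tubg, Tubgcp, Kif, Kifc, Dync, Dynl or Dctn), which gave 69 of 13101 genes: 18 tubulin genes, 32 kinesin genes and 19 dynein or dynactin genes. In all counts by class, the Tubgcp genes of the ring complex, which are not tubulins, are included with the tubulin genes. Poly(A) RNA had been sequenced from mouse embryos at the 2-cell stage, all on a C57BL/6 background and collected after timed matings, in 4 wild-type (WT) pools and 4 Dux KO pools of 12 to 18 embryos each. Dux encodes a transcription factor that is made at the onset of embryonic transcription and activates genes of the 2-cell stage. The nature of the deleted allele, the genotype of the mothers and the hour of collection are not stated in the labels, and each library is a mixture of embryos. Nothing in the labels says whether pools came from separate matings, so p-values measure only the spread between these pools. Recovered gene reads ranged from 12343369 to 14548526 per library, and the 10 most abundant genes took 14.5% to 18.7% of them. Dux itself was not analysed here, so the deletion was not checked against the RNA. Values are FPKM as deposited, fragments scaled to the length of the gene and by 1 factor per library. These factors did not follow the recovered gene reads. The factor per read was 1.12 in WT replicate 3 (13248986 reads) and 0.932 in Dux KO replicate 1 (13010944 reads). Scaling to total reads was not tested.

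Microtubules are polymers of α- and β-tubulin dimers, and each mammalian genome carries several genes for both. New microtubules are started by γ-tubulin held in a ring by the Tubgcp proteins. Kinesins are motors that mostly walk to the plus end and carry cargo, push spindle microtubules apart or take microtubule ends apart, whereas cytoplasmic dynein walks to the minus end with the help of dynactin. Mouse zygotes lack centrioles, and the spindles of the first cleavages are assembled without them. The mRNAs measured at the 2-cell stage are a mixture of those left over from the oocyte and those made by the embryo.

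Promoter sequences of a few motors are shown because 8 of 10 spindle and midbody kinesins held a common element in the sequence searched. RefSeq promoter windows (build GRCm38.p6, 250 bases before and 50 bases after the start) were matched by symbol for 51 of the 69 genes. The cell cycle genes homology region, or CHR, is a short element bound by the MuvB complexes that time genes of the later cell cycle, and its letters TTTGAA were searched on both strands. It was found in the windows of 8 of 10 spindle and midbody kinesins (80%), against 0 of 9 transport kinesins, 11 of all 51 matched genes, 12.2% of 9116 genes that were tested for expression and 18.0% of 27025 windows in all. The CCAAT box, searched as CCAAT on both strands, was in 5 of the 10 spindle kinesin windows and in 40.3% of tested genes. The 250 bases before the start are printed 5′ to 3′ on the strand of the gene for 2 spindle kinesins with the element close to the start, 1 without it and 1 transport kinesin, with CHR and CCAAT matches in capitals (reversed matches read TTCAAA and ATTGG).
Kif22: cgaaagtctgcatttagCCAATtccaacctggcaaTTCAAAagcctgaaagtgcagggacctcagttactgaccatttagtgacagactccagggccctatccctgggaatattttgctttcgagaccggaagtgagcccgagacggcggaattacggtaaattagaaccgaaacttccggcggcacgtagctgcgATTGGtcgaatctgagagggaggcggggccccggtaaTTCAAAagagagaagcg
Kif15: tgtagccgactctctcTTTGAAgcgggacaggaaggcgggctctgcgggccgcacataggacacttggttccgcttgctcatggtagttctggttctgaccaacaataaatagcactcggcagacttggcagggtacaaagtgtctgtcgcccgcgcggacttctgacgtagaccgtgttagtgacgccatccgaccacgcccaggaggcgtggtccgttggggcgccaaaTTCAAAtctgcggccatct
Kif18a: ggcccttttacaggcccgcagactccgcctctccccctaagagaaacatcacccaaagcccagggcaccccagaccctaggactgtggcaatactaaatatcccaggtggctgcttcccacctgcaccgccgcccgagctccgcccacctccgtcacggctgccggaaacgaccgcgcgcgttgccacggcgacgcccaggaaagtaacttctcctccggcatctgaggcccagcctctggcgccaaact
Kif17: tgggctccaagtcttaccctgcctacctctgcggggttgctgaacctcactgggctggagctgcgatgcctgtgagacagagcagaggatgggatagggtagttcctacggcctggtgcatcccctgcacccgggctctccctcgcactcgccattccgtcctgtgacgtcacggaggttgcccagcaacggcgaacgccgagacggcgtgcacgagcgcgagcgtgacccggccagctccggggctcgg
These windows lie at chr7:127042421-127042670 on the minus strand for Kif22, chr9:122950831-122951080 on the plus strand for Kif15, chr2:109280488-109280737 on the plus strand for Kif18a and chr4:138262001-138262250 on the plus strand for Kif17. Counting the start base as 0, CHR matches began at positions -215 and -17 in Kif22 and at -234 and -19 in Kif15, and Kif22 also had CCAAT matches at -233 and -54. Kif18a and Kif17 held neither element in the stretch shown, and Kif2a was the other matched spindle kinesin without CHR. The only CHR matches of Kif20b (7 and 13), Kif18b (3), Kif23 (2) and Kif4 (19) lay after the start, and the window used for Kif2c lies 3867 bases from its principal start in GENCODE M21. A match is a string of letters and not a measured binding site.

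Of the 69 genes, 64 had a mean of at least 0.5 FPKM and were tested, and 9 were higher and 12 lower in Dux KO pools by limma (adjusted p under 0.05 over 12434 genes). Those 21 genes are 32.8% of the 64, beside 33.6% of all tested genes, and the split was 15.5% higher and 18.1% lower over all genes against 14.1% and 18.8% here. The 4 WT and 4 Dux KO values did not overlap for 22 of the 64, beside 33.1% of all tested genes. The share of microtubule and motor genes that moved was thus near that of the background, and their median log2 fold change was -0.03, beside -0.02 for all genes. The direction varied between the classes, a difference that was not tested. Among tubulin and ring complex genes 5 rose, Tubgcp2 among them, and 2 fell, Tubgcp5 among them. Kinesins had 2 that rose and 7 that fell, and dynein and dynactin genes 2 that rose and 3 that fell. The shares called were 38.9%, 32.1% and 27.8% in turn. With median-of-ratios scaling the split over all 64 was 11 higher and 9 lower, beside 2076 and 2046 over all genes. With quantile normalization it was 10 and 8, beside 1850 and 1904. These counts lean on a few pools: they were 3 and 5 with Dux KO replicate 1 left out, 5 and 5 with Dux KO replicate 2 left out, 5 and 9 without WT replicate 1, 5 and 8 without WT replicate 2, 7 and 6 without WT replicate 3, and 6 and 5 without WT replicate 4. Without Dux KO replicates 1 and 2 together, 1 gene (Kif17) stayed higher and 1 (Kif3c) stayed lower, beside 353 and 447 over all genes. The 5 genes below the level filter were Kif21a, Kif21b, Kif5a, Kif6 and Dync2h1, with means between 0.167 and 0.482 FPKM.

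**Figure D1:**
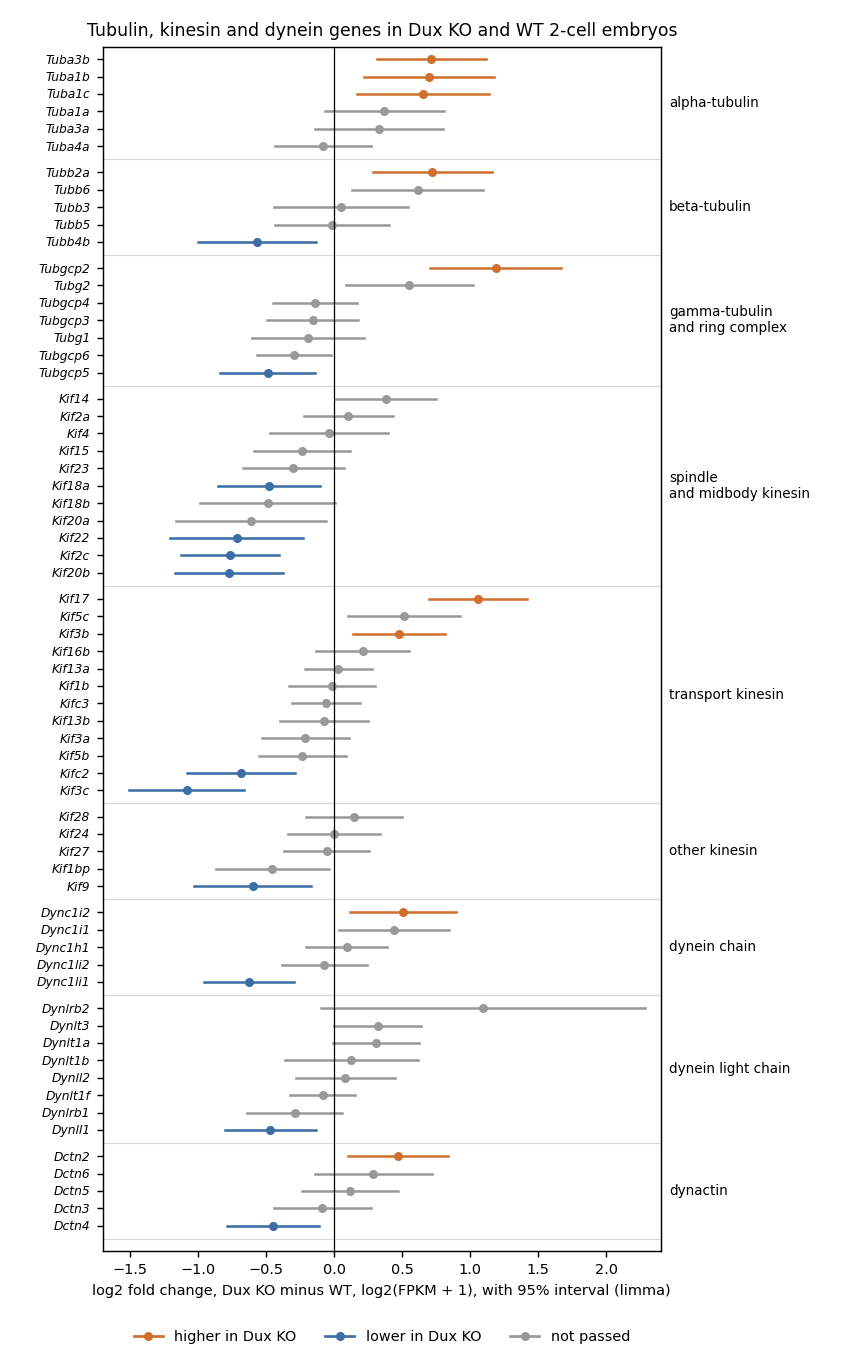
Log2 fold change (Dux KO minus WT, on the log2(FPKM + 1) scale) of the 64 tested genes, grouped by role, with 95% intervals from limma; orange marks the 9 genes called higher, blue the 12 called lower and grey those that did not pass. Of the 11 spindle and midbody kinesins 9 lie left of 0, and 5 of the 6 α-tubulins lie right of it.

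Of the 6 α-tubulin genes 3 rose in Dux KO embryos (50%, beside 15.5% of all tested genes). They were Tuba3b, Tuba1c and Tuba1b, and 5 of the 6 genes had a positive log2 fold change, with a median of 0.51 (0.44 to 0.58 when any 1 pool was left out). No α-tubulin gene was called lower by limma, none had an unadjusted p under 0.05 in that direction, and edgeR and DESeq2 on the recovered reads also called 3 higher and 0 lower. The count of 3 fell to 1 without WT 1, WT 2, Dux KO 1 or Dux KO 4, to 2 without Dux KO 2 or Dux KO 3, and to 0 without Dux KO replicates 1 and 2 together. Summed over the 6 genes, α-tubulin mRNA was 51.9, 66.1, 68.3 and 68.6 FPKM in the WT pools and 111, 88.8, 78.1 and 74.3 FPKM in the Dux KO pools. Every Dux KO pool was above every WT pool, and the excess was largest in Dux KO replicate 1.

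Tuba3b (chr6:145615757-145621479, GRCm38, plus strand) was the most abundant α-tubulin gene, and like Tuba3a it is known for its high level in mouse testis. It measured 14.9, 22.1, 23.3 and 20.2 FPKM in WT pools 1 to 4 and 43.2, 32.1, 30.7 and 28.5 FPKM in Dux KO pools 1 to 4. The groups did not overlap, and the log2 fold change was 0.71 ± 0.18 (SE; limma adjusted p = 0.0146). Its call held when any 1 pool was left out. Tuba3a, at 14.5 ± 3.12 FPKM in WT pools and 18.6 ± 5.09 FPKM in Dux KO pools (SD, n = 4), did not pass (log2 fold change 0.33, limma adjusted p = 0.244).

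Tuba1c and Tuba1b encode near-identical α-tubulins found in most dividing cells. Tuba1c measured 5.91, 5.48, 10.35 and 9.80 FPKM in WT pools and 16.4, 10.6, 11.5 and 12.3 FPKM in Dux KO pools. The highest WT pool was just under the lowest Dux KO pool, and the log2 fold change was 0.65 ± 0.22 (limma adjusted p = 0.0408). Tuba1b was lower in level, at 1.52, 1.69, 2.21 and 2.51 FPKM in WT pools and 5.66, 3.97, 2.27 and 3.904 FPKM in Dux KO pools. Dux KO replicate 3 fell inside the WT range, and the log2 fold change was 0.70 ± 0.22 (limma adjusted p = 0.0308). The call for Tuba1c ended without WT 1, WT 2, Dux KO 1, Dux KO 3 or Dux KO 4 (limma adjusted p from 0.0586 to 0.116), and that for Tuba1b without WT 1, WT 2, Dux KO 1, Dux KO 2 or Dux KO 4 (0.0538 to 0.0879) or with quantile normalization (0.0518). Reads may be hard to assign within this family: of the 50-base windows of the GENCODE M21 transcripts, 75.5% of those of Tuba1a, 75.1% of Tuba1b, 52.7% of Tuba1c, 35.3% of Tuba3a and 29.6% of Tuba3b also occurred in another gene.

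Tuba4a, whose product lacks the terminal tyrosine of other α-tubulins, did not pass (17.4 ± 1.08 FPKM in WT pools and 16.6 ± 3.35 FPKM in Dux KO pools; log2 fold change -0.08, limma adjusted p = 0.708). Its share of summed α-tubulin mRNA was 23.7% to 32.3% in WT pools and 16.5% to 22.2% in Dux KO pools, while that of Tuba3b was 28.7% to 34.1% and 36.2% to 39.2%. Neither pair of ranges overlapped. Antisense reads could enter the Tuba4a value, since 37.3% of its exon bases are also exon of Stk16 on the opposite strand.

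**Figure D2:**
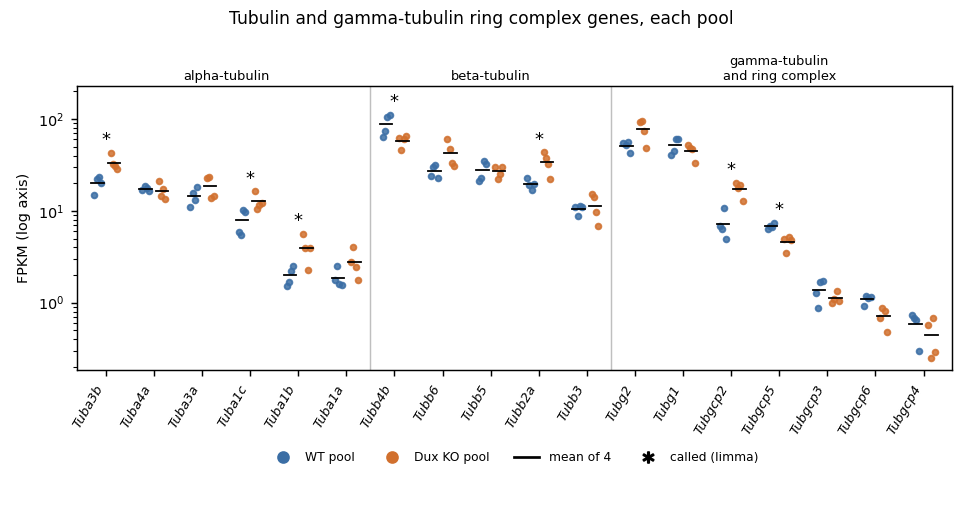
FPKM (log axis) of the 18 tubulin and ring complex genes in each of 4 WT pools (blue) and 4 Dux KO pools (orange), with the mean of each group as a black bar and an asterisk over genes called by limma. Tuba3b, Tuba1c and Tubgcp2 separate the groups upward, Tubgcp5 and Tubgcp6 downward, and Tubb4b and Tubb2a move in opposite directions.

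The β-tubulin genes shifted in make-up and not in total. Tubb2a rose and Tubb4b fell, and the sum over the 5 genes was 174 ± 28.8 FPKM in WT pools and 174 ± 25.9 FPKM in Dux KO pools (SD, n = 4). Tubb4b, a widely expressed β-tubulin that is also abundant in cilia, was the leading gene at 64.5, 73.6, 105 and 112 FPKM in WT pools and 61.5, 46.5, 60.4 and 65.1 FPKM in Dux KO pools. WT replicates 3 and 4 were far above the other pools, and WT replicate 1 lay within the Dux KO range. Its log2 fold change was -0.57 ± 0.20 (limma adjusted p = 0.0454), and the call ended without WT 3, WT 4 or any one of the 4 Dux KO pools (0.0511 to 0.130). It also ended with median-of-ratios scaling (log2 fold change -0.53, limma adjusted p = 0.0516) and with quantile normalization (-0.34, 0.165). Tubb2a, a β-tubulin best known from neurons, measured 23.1, 19.1, 16.9 and 19.7 FPKM in WT pools and 43.5, 37.2, 32.6 and 22.3 FPKM in Dux KO pools. Dux KO replicate 4 fell inside the WT range, the log2 fold change was 0.72 ± 0.20 (limma adjusted p = 0.0195), and the call ended without Dux KO replicate 1 (0.0603).

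Tubb6, a minor β-tubulin in most tissues, missed the threshold by little. It measured 23.8, 30.2, 31.3 and 22.7 FPKM in WT pools and 61.4, 47.0, 33.4 and 30.5 FPKM in Dux KO pools (log2 fold change 0.61 ± 0.22, limma adjusted p = 0.0501). Dux KO replicates 1 and 2 were the highest pools, and replicate 3 was just above the highest WT pool. Tubb5, the ubiquitous β-tubulin, and Tubb3, a marker of neurons, had log2 fold changes of -0.02 and 0.05 and did not pass. In shares of summed β-tubulin mRNA, Tubb4b made up 45.0%, 47.7%, 52.6% and 56.7% in WT pools and 29.0%, 27.9%, 37.4% and 42.1% in Dux KO pools, and Tubb6 made up 11.5% to 19.6% and 19.7% to 29.0%. The ranges of both genes were separate, those of Tubb6 by a narrow margin. Those of Tubb2a overlapped, at 8.51% to 16.1% in WT pools and 14.4% to 22.3% in Dux KO pools. Of the 50-base windows, 49.6% for Tubb2a and 41.3% for Tubb4b occur in another gene, mainly Tubb2b and the pseudogene Tubb4b-ps1, whereas none did for Tubb6.

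The ratio of summed β- to summed α-tubulin FPKM was 2.76, 2.34, 2.91 and 2.89 in the WT pools and 1.90, 1.88, 2.06 and 2.08 in the Dux KO pools. The 2 groups were separate and the Dux KO pools close to one another, although the sums behind the ratio varied more. The ratio compares mRNA per length and says nothing of tubulin protein.

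**Figure D3:**
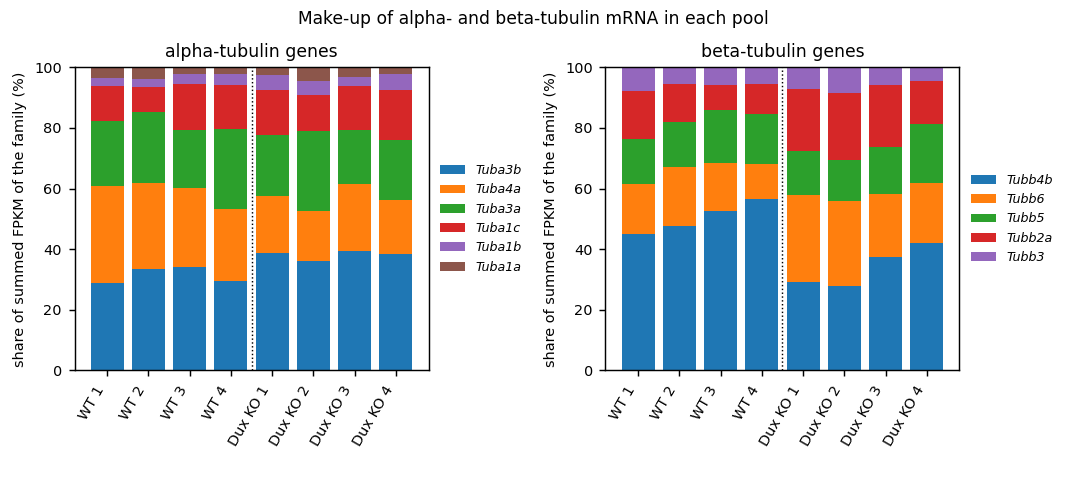
Percent of the summed FPKM of the 6 α-tubulin genes (left) and of the 5 β-tubulin genes (right) held by each gene, 1 bar per pool, WT pools left of the dotted line. In Dux KO pools Tuba3b takes a larger and Tuba4a a smaller part of α-tubulin, and Tubb4b falls below its share in every WT pool.

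Among the 7 γ-tubulin and ring complex genes, 1 rose and 1 fell (28.6% called, beside 33.6% of all tested genes), with a median log2 fold change of -0.16. Tubgcp2 (chr7:139995955-140036669, minus strand) encodes GCP2, which with GCP3 and γ-tubulin forms the small complex from which the ring is built. It measured 6.93, 6.33, 10.7 and 4.98 FPKM in WT pools and 20.4, 17.6, 19.1 and 12.7 FPKM in Dux KO pools. All Dux KO pools were above all WT pools, the ratio of means was 2.41, and the log2 fold change of 1.19 ± 0.22 (limma adjusted p = 0.00458) was the largest rise among the 21 called genes. The call held when any 1 pool was left out. Of its exon bases 5.43% are shared with Zfp511 on the opposite strand, which rose too (log2 fold change 0.61, limma adjusted p = 0.0118).

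The other Tubgcp genes did not rise. Tubgcp3, which encodes GCP3, was at 1.38 ± 0.397 FPKM in WT pools and 1.12 ± 0.161 FPKM in Dux KO pools (log2 fold change -0.16, limma adjusted p = 0.429). Tubgcp5, a component of the full ring, fell from 6.83 ± 0.448 to 4.62 ± 0.778 FPKM (SD, n = 4). Its WT pools measured 6.38, 6.82, 6.67 and 7.44 FPKM and its Dux KO pools 4.92, 3.47, 5.21 and 4.88 FPKM, with no overlap and a log2 fold change of -0.49 ± 0.16 (limma adjusted p = 0.0361). That call ended without any one of the WT pools or without Dux KO 1 or Dux KO 2 (0.0565 to 0.0909). Tubgcp6 and Tubgcp4, both low, did not pass, although Tubgcp6 was lower in every Dux KO pool (0.482 to 0.871 FPKM) than in any WT pool (0.923 to 1.17 FPKM), with a log2 fold change of -0.29 (limma adjusted p = 0.0851).

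The 2 γ-tubulin genes differ little in sequence and were both abundant. Tubg2 measured 55.3, 52.3, 55.8 and 42.5 FPKM in WT pools and 93.5, 96.1, 75.02 and 48.3 FPKM in Dux KO pools, so that 3 of 4 Dux KO pools were above every WT pool. Its log2 fold change was 0.55 ± 0.21 and did not pass (limma adjusted p = 0.0636). Tubg1 measured 51.6 ± 10.2 FPKM in WT pools and 45.0 ± 8.13 FPKM in Dux KO pools (log2 fold change -0.19, limma adjusted p = 0.432). Dux KO replicates 1, 2 and 3 were above every WT pool in Tubg2, Tubb6 and Tubb2a alike, and replicate 4 was within the WT range in all 3. Over the 18 tubulin and ring complex genes, the median deviation from the mean WT level on the log2 scale was 0.46 in Dux KO replicate 1 and 0.41 in replicate 2, but 0.04 in replicate 3 and -0.06 in replicate 4. The median log2 fold change of the class, 0.19, was accordingly 0.08 with Dux KO replicate 1 left out and 0.40 with replicate 3 left out.

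Of the 11 spindle and midbody kinesins 4 fell in Dux KO embryos. They were Kif20b, Kif2c, Kif22 and Kif18a, 9 of the 11 genes had a negative log2 fold change, and the median was -0.48 (between -0.56 and -0.35 when any 1 pool was left out, and -0.31 with quantile normalization). No gene of the group was called higher by limma, 1 had an unadjusted p under 0.05 in that direction, and edgeR and DESeq2 on the recovered reads called 1 higher and 5 lower. The share called lower, 36.4%, stands beside 18.1% of all tested genes. Abundant genes fell more often: with a mean of at least 5 FPKM, 1880 of 6468 genes were called lower, beside 4 of 10 in the group. The median log2 fold change there was -0.18 for all genes and -0.48 for the group, a difference that was not tested. The count of 4 fell to 2 without WT 3, WT 4, Dux KO 1 or Dux KO 2 and with quantile normalization, and to 0 without Dux KO replicates 1 and 2 together. Summed over the group, the mRNA was 267, 285, 409 and 363 FPKM in WT pools and 226, 224, 258 and 230 FPKM in Dux KO pools. The groups did not overlap, and WT replicates 3 and 4 were well above WT replicates 1 and 2.

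Kif2c encodes MCAK, which takes microtubule ends apart at centromeres and helps correct wrong attachments. It measured 28.9, 38.8, 42.1 and 40.6 FPKM in WT pools and 23.5, 18.0, 23.9 and 20.8 FPKM in Dux KO pools. There was no overlap, and the log2 fold change was -0.77 ± 0.16 (limma adjusted p = 0.00737). Kif20b (chr19:34922361-34975745, plus strand) encodes a slow plus-end motor of the midbody needed to finish cytokinesis. Its WT pools measured 50.2, 48.7, 60.01 and 61.2 FPKM and its Dux KO pools 26.7, 28.6, 45.0 and 29.1 FPKM. Dux KO replicate 3 stood apart from the other Dux KO pools but still under every WT pool, and the log2 fold change was -0.77 ± 0.18 (limma adjusted p = 0.0104). The calls of Kif2c and Kif20b held when any 1 pool was left out.

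Kif22, or Kid, binds chromosome arms and pushes them to the spindle equator. It measured 25.3, 32.5, 52.9 and 51.9 FPKM in WT pools and 23.3, 21.2, 25.2 and 23.3 FPKM in Dux KO pools. WT replicate 1 exceeded the highest Dux KO pool by almost nothing, whereas WT replicates 3 and 4 were more than 2 times any Dux KO pool (log2 fold change -0.72 ± 0.22, limma adjusted p = 0.0308). Kif18a, a kinesin-8 that damps chromosome movements at the spindle equator, was the most abundant kinesin of all. It measured 63.7, 60.8, 93.4 and 75.2 FPKM in WT pools and 51.6, 54.1, 58.6 and 43.1 FPKM in Dux KO pools, with no overlap and a log2 fold change of -0.48 ± 0.17 (limma adjusted p = 0.0484). Leaving out WT 3, WT 4, Dux KO 1, Dux KO 2 or Dux KO 4 ended the call for Kif22 (limma adjusted p from 0.0522 to 0.0900), and leaving out any pool but WT 2 ended that for Kif18a (0.0507 to 0.121). Quantile normalization ended both (-0.58 and limma adjusted p = 0.0513 for Kif22, -0.25 and 0.230 for Kif18a), and median-of-ratios scaling (0.0607), no filter (0.0505) and limma without trend and robust moderation (0.0515) that of Kif18a.

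The other members of the group did not pass. Kif20a, which brings the chromosomal passenger complex to the central spindle, showed the split between WT pools most plainly, at 13.7, 15.9, 35.6 and 24.0 FPKM in WT pools and 13.1, 12.9, 14.9 and 12.4 FPKM in Dux KO pools (log2 fold change -0.61 ± 0.25, limma adjusted p = 0.0785). Of its exon bases 29.3% overlap Cdc23 on the opposite strand, which fell from 4.82 ± 0.752 to 2.76 ± 0.239 FPKM (limma adjusted p = 0.0138). Kif23, the motor of centralspindlin, had a log2 fold change of -0.30, Kif18b of -0.49, Kif15 of -0.24 and the chromokinesin Kif4 of -0.04. Kif2a, a depolymerase of the spindle poles, was at 19.1 ± 2.32 FPKM in WT pools and 20.6 ± 2.41 FPKM in Dux KO pools. Of its exon bases 19.2% overlap Dimt1 on the opposite strand, which fell (log2 fold change -0.51, limma adjusted p = 0.0156). Of the exon bases of Kif4 15.1% overlap Pdzd11 on the opposite strand. Pdzd11 was at 154 ± 36.6 and 103 ± 36.7 FPKM and did not pass (limma adjusted p = 0.0849). The part of antisense reads in these values was not tested. Kif14, a midbody kinesin, pointed the other way with no overlap between groups (6.22 ± 1.011 and 8.40 ± 1.35 FPKM; log2 fold change 0.38, limma adjusted p = 0.0985).

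The CHR match described above occurred both in genes that fell and in genes that did not pass. Of the matched spindle kinesins only Kif18a and Kif2a lacked it, and its relation to the change was not tested. The match was in the windows of Kif22, Kif2c and Kif20b but not of Kif18a, all of which fell. Among the genes that did not pass it was present in Kif14, Kif15, Kif18b, Kif23 and Kif4, whose log2 fold changes ran from -0.49 to 0.38.

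**Figure D4:**
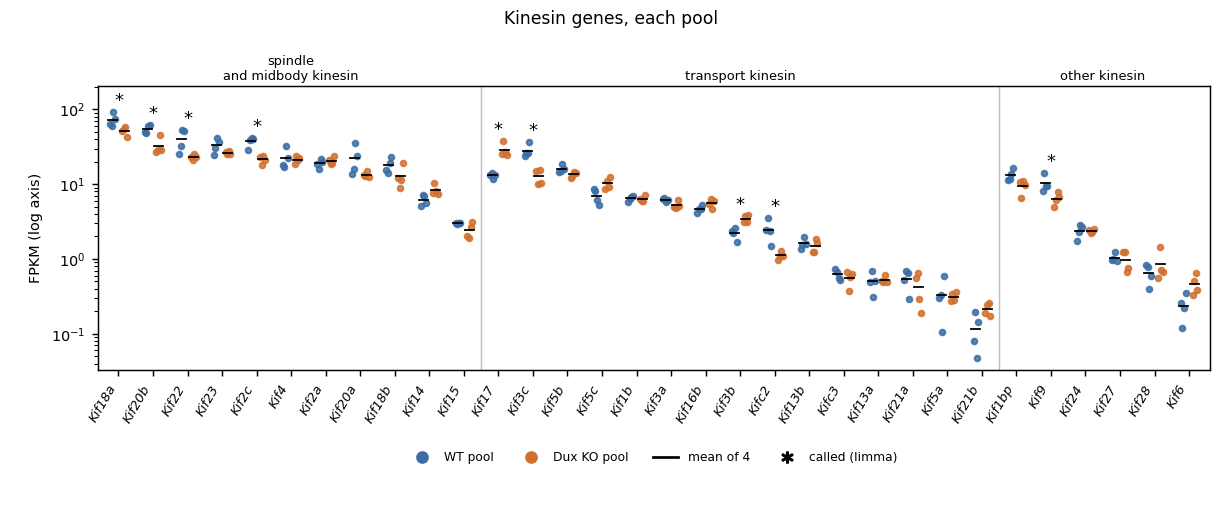
FPKM (log axis) of the 32 kinesin genes in each WT pool (blue) and Dux KO pool (orange), with group means as black bars and an asterisk over genes called by limma. In the left panel the asterisks mark Kif18a, Kif20b, Kif22 and Kif2c, all lower in Dux KO pools; among transport kinesins Kif17 and Kif3b are higher and Kif3c and Kifc2 lower.

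The transport kinesins included the 2 genes with the lowest adjusted p-values of the set, with changes in opposite directions. Of the 12 tested, 2 rose and 2 fell (33.3% called, beside 33.6% of all tested genes). The median log2 fold change was -0.04, and the summed level was 90.1 ± 4.79 FPKM in WT pools and 90.7 ± 5.29 FPKM in Dux KO pools. Kif17 (chr4:138250435-138301967, plus strand), a kinesin-2 that works as a pair of like chains and carries glutamate receptor cargo in mouse neurons, rose 2.19-fold. Its WT pools measured 13.1, 14.2, 11.8 and 13.3 FPKM and its Dux KO pools 25.3, 38.0, 27.2 and 24.5 FPKM. The lowest Dux KO pool was far above the highest WT pool, and the log2 fold change was 1.06 ± 0.17 (limma adjusted p = 0.00278). Kif3c (chr12:3365132-3406494, plus strand) fell from 23.6, 26.1, 26.2 and 36.3 FPKM in WT to 15.0, 10.1, 15.6 and 10.36 FPKM in Dux KO pools. There was again no overlap, and the log2 fold change was -1.08 ± 0.19 (limma adjusted p = 0.00402). Both calls held in all 20 alternative analyses, which no other called gene of the 21 did.

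Kif3c belongs to the heterotrimeric kinesin-2 motors, in which Kif3a pairs with either Kif3b or Kif3c. Kif3b rose, from 2.38, 2.20, 2.56 and 1.68 FPKM in WT to 3.13, 3.702, 3.17 and 3.82 FPKM in Dux KO pools (log2 fold change 0.48 ± 0.15, limma adjusted p = 0.0347). The groups did not overlap, but the call ended without WT 1, WT 2, WT 4, Dux KO 1, Dux KO 2 or Dux KO 4 (0.0543 to 0.0992) and with quantile normalization (0.0588). Kif3a, the common partner, was at 6.24 ± 0.316 FPKM in WT pools and 5.26 ± 0.595 FPKM in Dux KO pools and did not pass (log2 fold change -0.21, limma adjusted p = 0.268). Kif3c thus remained the most abundant of the 3 in both groups. Of its exon bases 40.7% lie opposite exons of the antisense genes 1110002L01Rik and Gm48512, and 1110002L01Rik itself was at 1.52 ± 0.127 FPKM in WT pools and 1.42 ± 0.312 FPKM in Dux KO pools.

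Kifc2, a minus-end kinesin first known from mouse neurons, was low and fell from 2.44, 3.55, 2.39 and 1.51 FPKM in WT to 0.964, 1.10, 1.29 and 1.11 FPKM in Dux KO pools (log2 fold change -0.68 ± 0.18, limma adjusted p = 0.0166). The groups were separate, and the call held without any 1 pool. The pseudocount of 1 shrinks so low a gene: edgeR on the recovered reads gave a log2 fold change of -1.11. The conventional kinesin heavy chains did not pass. Kif5b was at 16.1 ± 1.81 FPKM in WT pools and 13.5 ± 1.15 FPKM in Dux KO pools, with no overlap (log2 fold change -0.23, limma adjusted p = 0.221). Kif5c was at 7.01 ± 1.60 and 10.3 ± 1.78 FPKM (log2 fold change 0.51, limma adjusted p = 0.0549).

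Among the remaining kinesin genes, Kif9, which encodes a motor of motile cilia and sperm flagella, fell. It measured 8.12, 14.2, 9.35 and 9.45 FPKM in WT pools and 4.89, 6.10, 7.92 and 6.65 FPKM in Dux KO pools. Dux KO replicate 3 lay just under WT replicate 1, and the log2 fold change was -0.60 ± 0.20 (limma adjusted p = 0.0373). Its call ended without WT 2, WT 3, WT 4, Dux KO 1, Dux KO 2 or Dux KO 4 (0.0528 to 0.106) and with quantile normalization (0.0557). Kif1bp, a protein that binds and holds back kinesins and is no motor itself, was the most abundant of this group. It was lower in each Dux KO pool than in any WT pool (13.3 ± 2.37 and 9.51 ± 2.06 FPKM) but did not pass (log2 fold change -0.45, limma adjusted p = 0.0835).

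Among the dynein chains 5 of the 6 genes were tested, and Dync1li1 fell and Dync1i2 rose (40% called, beside 33.6% of all tested genes). Dync1li1 (chr9:114688790-114724302, plus strand) encodes a light intermediate chain, the part of dynein that holds cargo adaptors. It was the most abundant dynein chain mRNA, at 24.7, 28.0, 29.9 and 29.0 FPKM in WT pools and 18.5, 14.2, 18.5 and 19.9 FPKM in Dux KO pools. The groups were well apart, the log2 fold change was -0.63 ± 0.15 (limma adjusted p = 0.0113), and the call held without any 1 pool. Its paralogue Dync1li2 was at 2.47 ± 0.164 and 2.31 ± 0.278 FPKM and did not pass (log2 fold change -0.07, limma adjusted p = 0.708).

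Dync1i2 encodes the intermediate chain through which dynein meets dynactin in most cells. It measured 5.76, 5.51, 5.39 and 6.57 FPKM in WT pools and 7.99, 11.7, 9.001 and 6.59 FPKM in Dux KO pools. Dux KO replicate 4 was level with the highest WT pool, and the log2 fold change was 0.51 ± 0.18 (limma adjusted p = 0.0481). The call ended when any pool but Dux KO 4 was left out (0.0671 to 0.119). The other intermediate chain, Dync1i1, was at 1.15 ± 0.240 and 1.98 ± 0.734 FPKM and did not pass (log2 fold change 0.44, limma adjusted p = 0.0834). The heavy chain Dync1h1, the motor itself, ran from 0.504 to 1.08 FPKM over the pools (0.722 ± 0.147 in WT pools and 0.845 ± 0.258 in Dux KO pools; log2 fold change 0.09, limma adjusted p = 0.608).

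The dynein light chains held the most abundant mRNAs of the whole set. Dynlrb1, a roadblock light chain, had the highest mean level of the 69 genes, at 414, 329, 302 and 388 FPKM in WT pools and 261, 261, 314 and 332 FPKM in Dux KO pools. The groups overlapped and it did not pass (log2 fold change -0.29 ± 0.16, limma adjusted p = 0.171). Dynll1, the LC8 light chain that also pairs many proteins outside dynein, measured 290, 265, 281 and 263 FPKM in WT pools and 188, 161, 216 and 234 FPKM in Dux KO pools. It was lower in every Dux KO pool, with a log2 fold change of -0.47 ± 0.15 (limma adjusted p = 0.0353). The call ended without any one of the WT pools or without Dux KO 1 or Dux KO 2 (0.0513 to 0.0909). With quantile normalization the log2 fold change was -0.25 and did not pass (limma adjusted p = 0.191), and in that setting 1 light chain was called higher and 0 lower. In the main analysis Dynll1 was the only light chain called of the 8 tested (12.5%, beside 33.6% of all tested genes). Its close relative Dynll2 was at 84.7 ± 13.5 and 89.7 ± 13.2 FPKM and did not pass (log2 fold change 0.08, limma adjusted p = 0.716).

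Dynlrb2 had the widest spread of all tested genes of the set. It was listed at 0 in WT replicate 3 and at 13.3 FPKM in Dux KO replicate 2, from 0 to 116 recovered reads, and did not pass (log2 fold change 1.09 ± 0.54, limma adjusted p = 0.135). Dynlt1a, Dynlt1b and Dynlt1f share from 70.5% to 88.6% of their 50-base windows with other genes, so their values of 0.350 to 10.5 FPKM are uncertain.

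Dynactin showed 1 rise and 1 fall among 5 genes (40% called, beside 33.6% of all tested genes), both in subunits of low level. Dctn2, or dynamitin, belongs to the shoulder that joins the filament to dynein, and measured 1.75, 2.54, 1.33 and 2.09 FPKM in WT pools and 3.32, 2.71, 3.33 and 2.71 FPKM in Dux KO pools (log2 fold change 0.47 ± 0.17, limma adjusted p = 0.0499). Dctn4, a subunit of the pointed end of the filament, measured 3.56, 2.68, 2.36 and 3.43 FPKM in WT pools and 1.85, 1.90, 2.09 and 1.78 FPKM in Dux KO pools (log2 fold change -0.45 ± 0.16, limma adjusted p = 0.0431). Neither gene overlapped between groups. Both stand close to the threshold: leaving out any pool but WT 2 ended the call for Dctn2 (0.0567 to 0.121), and any pool but WT 3 that for Dctn4 (0.0548 to 0.108). Quantile normalization ended the call for Dctn2 (0.0820), as did a pseudocount of 0.1 or no filter, and median-of-ratios scaling that for Dctn4 (0.0560). The more abundant subunits Dctn3, at 38.2 ± 4.55 and 36.2 ± 6.67 FPKM, and Dctn5, at 22.0 ± 2.57 and 24.0 ± 4.22 FPKM, had log2 fold changes of -0.09 and 0.11 and did not pass.

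**Figure D5:**
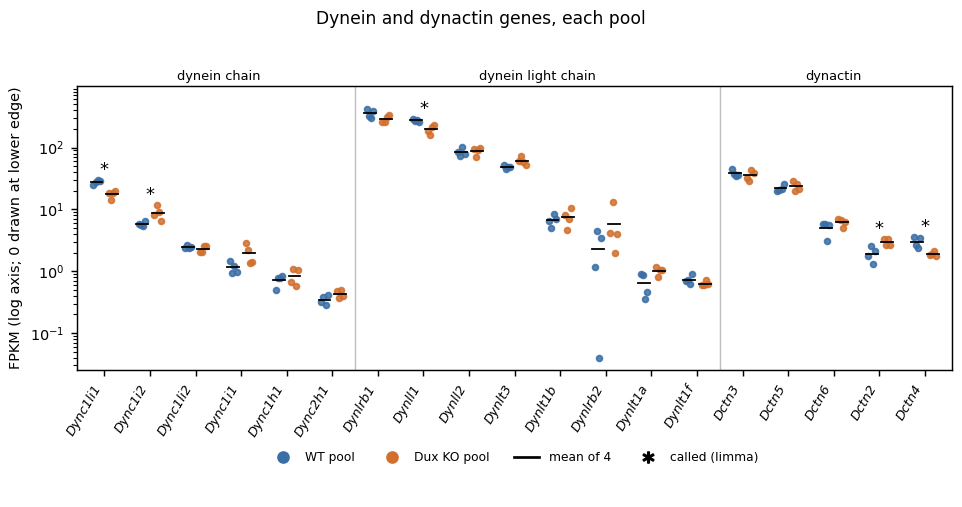
FPKM (log axis) of the 19 dynein and dynactin genes in each WT pool (blue) and Dux KO pool (orange), with group means as black bars and an asterisk over genes called by limma; the WT value of 0 for Dynlrb2 is drawn near the lower edge. Dync1li1, Dynll1 and Dctn4 are lower and Dync1i2 and Dctn2 higher in Dux KO pools.

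A wider list of 80 microtubule genes that are not in the families above (tubulin folding, nucleation, plus-end binding and motor partners) had 67 in the gene table and 63 tested, of which 3 rose and 10 fell. That is 20.6% called, beside 33.6% of all tested genes, with a median log2 fold change of -0.07. The share called lower, 15.9%, was under the 18.1% of all tested genes. Some spindle assembly genes were among those that fell, whereas others, such as Numa1 (log2 fold change 0.41) and Nusap1 (-0.09), did not pass. Prc1, which bundles the central spindle and recruits Kif4 and Kif20a there, measured 80.3, 84.9, 127 and 94.8 FPKM in WT pools and 49.7, 42.6, 74.8 and 51.1 FPKM in Dux KO pools (log2 fold change -0.82 ± 0.20, limma adjusted p = 0.0122). Haus3, a subunit of the augmin complex that starts microtubules from the side of others, measured 149, 132, 134 and 138 FPKM in WT pools and 67.9, 60.7, 104 and 74.3 FPKM in Dux KO pools (log2 fold change -0.87 ± 0.17, limma adjusted p = 0.00578). Neither gene overlapped between groups, and in both Dux KO replicate 3 was the highest of its group.

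Stmn3, which binds tubulin dimers and favours disassembly, had the largest fall of the list, from 139 ± 29.7 to 57.0 ± 17.3 FPKM, a log2 fold change of -1.30 ± 0.24 (limma adjusted p = 0.00458). The tubulin folding cofactor Tbcb fell from 166 ± 15.2 to 102 ± 11.3 FPKM, a log2 fold change of -0.71 (limma adjusted p = 0.0061), and the kinesin light chain Klc2 from 1.56 ± 0.328 to 0.462 ± 0.172 FPKM (-0.81, limma adjusted p = 0.00367). Those that rose were Mapre2, a plus-end binding protein (1.60 ± 0.489 to 3.65 ± 0.911 FPKM, with 0.84 on the log2 scale, limma adjusted p = 0.0101), Mzt1, a small subunit of the γ-tubulin ring (45.8 ± 3.68 to 69.6 ± 9.37 FPKM, 0.59, limma adjusted p = 0.0124), and Hook1, a dynein adaptor (6.36 ± 1.41 to 9.51 ± 1.202 FPKM, 0.52, limma adjusted p = 0.0394). Mzt1 and Tubgcp2, which both belong to the ring complex, rose while Tubgcp5 fell. Of these 8 genes the call of Hook1 ended without WT 1, WT 3, WT 4, Dux KO 1, Dux KO 2 or Dux KO 4 (limma adjusted p from 0.0608 to 0.111), and the other 7 calls held without any 1 pool.

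In bulk RNA from pooled embryos, fewer cells of a type and less RNA per cell cannot be told apart, and markers were therefore summed in each pool. All 10 listed oocyte and 2-cell genes were in the table, at 5277 to 6607 FPKM in WT pools and 4011 to 6220 FPKM in Dux KO pools. That sum was mostly Dppa3 (4576 to 5665 and 3158 to 3747 FPKM), followed by Btg4 (300 to 545 and 494 to 2183 FPKM). Of the 10 genes Btg4 rose while Zp3, Dppa3 and Zscan4f fell. Of the markers of other cells, 3 of 10 for cumulus cells (21.5 to 34.0 and 19.6 to 25.5 FPKM), 5 of 10 for oviduct epithelium (129 to 150 and 89.1 to 126 FPKM, mostly Epcam), 1 of 8 for sperm (Ldhc, 46.1 to 78.4 and 22.8 to 44.3 FPKM), 2 of 6 for neurons (Syt1 and Map2, 0.778 to 0.931 and 1.66 to 2.51 FPKM) and none of 6 for blood were in the table. The lowest mean count across samples (counts, not FPKM) of any gene in the table was 25.01, and markers outside it have no value here. Among the markers in the table, Syt1 and the cumulus marker Cyp19a1 rose (0.420 ± 0.147 FPKM in WT pools against 1.06 ± 0.311 for Cyp19a1, limma adjusted p = 0.0167) and Epcam and Ldhc fell. The more abundant cumulus markers Amhr2 and Tnfaip6 pointed the other way, at 0.851 and 0.837 times their WT means in Dux KO pools, and did not pass. The oviduct markers went both ways: Ovgp1 was 2.11 times and Dnah5 3.17 times its WT mean in Dux KO pools, with overlapping groups, the first not passing and the second not tested. The part of these markers in the results for Kif9, Tuba3b, Tubb2a, Kif17 and Kifc2, genes known from testis, cilia or neurons, was not tested.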

How the data were processed

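RNA-seq of 8 pools of 2-cell embryos (4 WT, 4 Dux KO) was analysed from a deposited gene table. Per the submitters' processing notes, the tools were Trimmomatic 0.32, STAR 2.6.1a and SAMtools 1.7 and the build GRCm38 (mm10). No counter, annotation or strand setting is given in the sources used here. The authors deposited FPKM per gene and pool, mean counts across samples, a log2 fold change and an adjusted p-value, per the file headers. Each gene's values were first multiplied by its deposited mean count over its mean FPKM. All values then came out as whole multiples of 1 step per library within 0.05 reads, so whole reads were recovered. The values appear scaled between libraries by factors that did not follow the recovered gene reads. The deposited repeat table's FPM signal only served to compare these steps.

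Genes averaging 0.5 FPKM or more were tested as log2(FPKM + 1) with limma 3.58.1 (trend, robust; R 4.3.3), with Benjamini-Hochberg adjustment over 12434 genes. This scale understates changes of low genes. FPKM are not counts, so edgeR 4.0.16 and DESeq2 1.42.0 on recovered reads were alternatives only. Groups and replicate numbers came from the labels. The members and lists were chosen with earlier results of these data known. From each of 9 roles, the text had to name up to 3 called genes per direction by size and the most abundant gene, plus, of the wider list, the 4 largest per direction and the 2 most abundant; others are named for level or role. Gene positions, exon overlaps and 50-base windows came from GENCODE M21 (GRCm38). The pipeline was tested on simulated data. No 2 pools of a group agreed within sampling noise (chi-square per degree of freedom 13.8 to 117).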

Additional observations from a re-analysis of the deposited data

Results flagged for a closer look

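Kif20b in Dux KO replicate 3 stood apart from its group, at 45.0 FPKM beside 26.7 to 29.1 FPKM in the other 3 Dux KO pools. Of the 50 groups of 4 pools examined (25 named genes in 2 genotypes), this was the only one with a sample so far from the rest, and chance gives about 1 in 20. Without that pool the call for Kif20b held.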

How the results depend on the processing

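No called gene changed direction in the 20 alternatives; of the named genes Dctn3, not called (-0.09), turned to 0.06 with quantile normalization, 0.0038 with Dux KO replicate 2 left out and 0.12 with both replicates 1 and 2 left out. Without Dux KO replicates 1 and 2, 1 gene of the set was higher and 1 lower (tubulins 0 and 0, kinesins 1 and 1, dynein and dynactin 0 and 0, the wider list 0 and 3); over all genes 353 were higher and 447 lower with these 2 pools left out. Without Dux KO replicates 3 and 4, 1 tubulin was lower, 1 kinesin higher and 5 of the wider list higher. Median-of-ratios scaling gave 1 tubulin lower, and quantile normalization 4 kinesins lower. With the replicate block, 1 kinesin and 1 dynein or dynactin gene were higher; the latter was also 1 with a pseudocount of 0.1, with no filter or with a mean of at least 5 FPKM. edgeR and DESeq2 each called 4 kinesins higher, and 8 and 10 genes of the wider list higher; quantile normalization, median-of-ratios scaling, limma without trend and robust moderation, and the authors' deposited table each gave 5 there. Leaving out 1 pool at a time gave 3 to 7 genes of the set higher and 5 to 9 lower: tubulins 2 to 5 and 0 to 1, kinesins 1 to 2 and 4 to 7, dynein and dynactin 0 to 1 and 1 to 2, and the wider list 2 to 5 and 7 to 10. The cause of these changes was not tested; fewer pools also leave fewer genes called overall (1179 higher and 1348 lower without WT replicate 4). With a mean of at least 5 FPKM the median of all genes was -0.18, and that of kinesins -0.30. Replicate numbers did not pair the pools: deviations of same-numbered pools correlated at -0.12, 0.33, -0.06 and 0.30, and for 2 of the 4 numbers the best match was a pool of another number. The replicate block gave 9 genes of the set higher and 13 lower. Genes under about 1 FPKM rest on few reads, such as 31 to 80 per pool for Kif13a.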
